A study of Homo sapiens with 8 samples.

Results

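CDKN1A encodes p21, an inhibitor of cyclin-dependent kinases that stops the cell cycle after DNA damage. To follow chromatin accessibility at this gene after UV light, all accessible regions over the gene and 20 kb on each side were taken from 8 ATAC-seq peak lists. ATAC-seq inserts sequencing adapters into open DNA with the transposase Tn5. Members were chosen by overlap of a called region with that window, so the presence of a region is a description and was not tested. The window runs on chromosome 6 from 36656460 to 36707337 (hg38) around the gene ENSG00000124762.14, which spans 36676460 to 36687337 on the plus strand. It held 77 of the 1440417 regions of the lists, of which 76 were distinct intervals. Joined over the lists they gave 14 of 548046 sites, and 7 of these had a region in all 8 lists, among 60323 such sites in the genome. Sites are named by the distance of their middle from the canonical start site at position 36678714. At the edges of the window, the site at -22.2 kb lay just inside, in 1 list at percentile 16.2, and the nearest site outside on the left lay at -28.9 kb, in 6 lists at percentiles 65.2 to 86.4. On the right, the site at +22.9 kb was the last inside, and the nearest outside lay at +33.2 kb, in 8 lists at percentiles 3.34 to 87.8.

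The cells were U2OS, a human osteosarcoma line with wild-type p53. There were 4 groups of 2 libraries: wild-type (WT) and ASH1L-/- cells, each either unchallenged or collected 3 h post UV. The UV-C dose was 20 J per square metre. ASH1L-/- cells lack the histone methyltransferase ASH1L after Cas9 cutting of 2 parts of its gene and were grown from isolated colonies, so that genotype and clone cannot be told apart. All cells were treated with DNase before tagmentation to remove DNA of dead cells. The labels call the libraries biological replicates.

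p53 is a transcription factor that is stabilised after DNA damage and binds a pair of adjoining half-sites. CDKN1A is its best-known target, and activation has been traced to p53 elements upstream of the start site. PANDAR and DINOL are long non-coding RNA genes that start upstream of CDKN1A on the minus strand and are also known p53 targets. UV-C light makes pyrimidine dimers, which block RNA polymerase II and are removed by nucleotide excision repair.

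The lists held between 158198 and 220783 regions. Depth, read as the average pileup across the genome, was between 1.39 and 2.81 in 7 libraries and 5.87 in replicate 1 of the unchallenged ASH1L-/- cells, which stands apart. The fold enrichment of a region is the pileup of reads at its summit over a local background of the same library. Its rank within the list, as a percentile, is the main measure used below, because the lists were not normalised to each other. Of 8 marker genes of bone and mesenchyme, 5 had a region within 1 kb of the canonical start in all 8 lists, among them RUNX2 and COL1A1. Of 14 markers of other cell types, 8 had none in any list, among them PTPRC and CDH1, whereas EPCAM, KRT8 and TNNT2 had one in all 8.

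**Figure D1:**
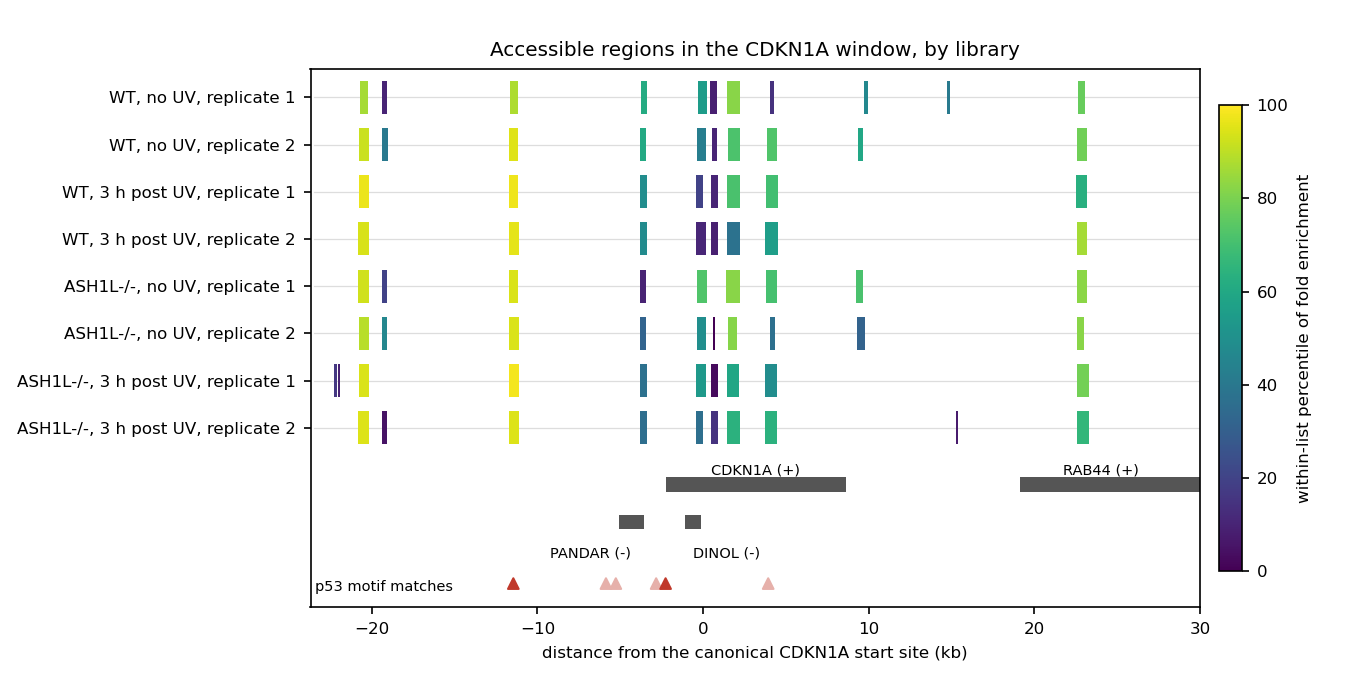
Accessible regions by library against the distance from the canonical CDKN1A start site in kb. Boxes are regions at their true width, coloured by the percentile of their fold enrichment within the list, bars mark genes with their strand, and triangles mark matches to the p53 motif (dark red for at most 2 departures). The 2 upstream sites at -20.5 and -11.4 kb are the highest-ranked of the window in all 8 lists, and the region at the start site is of middle to low rank.

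The sequences of the window were searched for p53 elements first, since these are the sites the gene is known for. A match was 20 bases with both half-sites adjoining, all core bases of the p53 consensus intact and at most 3 departures elsewhere. There were 6 such matches in the window, and 2 of them lay in a site that was open in all 8 lists. The match with the fewest departures, 1, lay in the -11.4 kb site at chr6:36667258-36667277. The match at chr6:36676449-36676468, with 2 departures, starts at -2265 bases from the canonical start, at the upstream alternative starts of CDKN1A. Another, with 3 departures, lay in the +4.1 kb site at chr6:36682643-36682662, and there the called region itself reached it in 6 of 8 lists, not in replicate 1 of unchallenged WT or replicate 2 of unchallenged ASH1L-/- cells. These 3 are shown on the plus strand, 5′ to 3′, with the core of each half-site in capitals:
p53 element at -11.4 kb: agaCAAGcccgggCAAGgcc
p53 element at the upstream starts: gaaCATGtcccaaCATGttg
p53 element at +4.1 kb: ctgCAAGttgggaCTTGtcc

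The element at the upstream starts was in no called region of any list. The nearest site, at -3.6 kb, ended 1134 bases away. The other 3 matches, which start at -5864, -5269 and -2835 bases from the canonical start, had 3 departures each and were likewise in no region. A p53 match was found in 0.70% of the 300-base windows around the summits of sites present in all 8 lists and in 0.427% of RefSeq promoters. Such a window held 1 match at the -11.4 kb site and 0 at the +4.1 kb site, whose match lies outside it.

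The 300 bases around the summits of both upstream sites are given on the plus strand of hg38, since reads at both rose after UV. The -11.4 kb window is chr6:36667185-36667484, and its capitals mark the p53 element. The -20.5 kb window is chr6:36658095-36658394, and its capitals mark the sequence TGANTCA, bound by AP-1 factors. It has 2 such sequences, and 39.0% of sites in all 8 lists have at least 1 in such a window.
-11.4 kb site: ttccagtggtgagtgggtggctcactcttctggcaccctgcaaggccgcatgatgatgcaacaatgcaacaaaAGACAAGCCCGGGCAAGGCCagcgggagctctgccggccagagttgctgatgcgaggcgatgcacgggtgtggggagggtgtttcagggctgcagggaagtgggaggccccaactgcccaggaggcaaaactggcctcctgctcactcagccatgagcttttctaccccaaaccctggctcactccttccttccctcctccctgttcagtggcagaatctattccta
-20.5 kb site: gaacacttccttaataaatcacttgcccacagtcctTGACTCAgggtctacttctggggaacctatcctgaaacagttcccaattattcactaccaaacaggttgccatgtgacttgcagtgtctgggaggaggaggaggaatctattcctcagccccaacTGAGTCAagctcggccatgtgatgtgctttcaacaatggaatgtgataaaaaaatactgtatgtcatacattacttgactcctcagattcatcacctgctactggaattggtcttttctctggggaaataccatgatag

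At the canonical start, the 250 bases upstream (RefSeq, GRCh38.p14, chr6:36678464-36678713, plus strand) held no p53 match and no TATAAA. They held 4 copies of GGGCGG, the sequence bound by Sp1, shown in capitals with the last 2 overlapping. Over 300-base promoters in RefSeq, 45.0% had GGGCGG and 11.5% had TATAAA on either strand.
CDKN1A promoter: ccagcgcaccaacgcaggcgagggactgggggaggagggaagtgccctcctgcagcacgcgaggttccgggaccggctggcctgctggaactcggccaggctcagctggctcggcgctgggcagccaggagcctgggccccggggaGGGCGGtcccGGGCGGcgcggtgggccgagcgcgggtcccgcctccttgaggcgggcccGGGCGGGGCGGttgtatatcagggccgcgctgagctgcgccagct

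The distal site at -11.4 kb, an intergenic stretch from 36666974 to 36667587, ranked high throughout. Its percentiles in WT cells were 87.7 and 95.0 without UV and 97.6 and 95.7 after UV. They were 94.2 and 94.5 in ASH1L-/- cells without UV and 98.1 and 94.6 after UV. The ranges with and without UV overlap. In rank score, which is the percentile turned into a normal deviate, the UV difference was 0.35 ± 0.16 (SE) and did not pass (limma, Benjamini-Hochberg adjusted p = 0.162). The number of reads at the summit, scaled to the mean pileup of the genome, was 19.5 and 51.2 in WT cells without UV and 74.3 and 114.8 after UV. In ASH1L-/- cells it was 20.1 and 40.3 without UV and 92.4 and 64.3 after UV. All 4 UV libraries were thus above all 4 unchallenged ones, as at 17.1% of all 60323 sites, at 86.5 ± 22.2 against 32.8 ± 15.6 (SD, n = 4 each). Relative to the median of all sites in each library, the summit pileup rose 1.88-fold after UV (95% interval 1.41 to 2.50, adjusted p = 0.00297 in limma).

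The site at -20.5 kb, intergenic from 36657910 to 36658548, moved in the same direction. In WT cells its percentiles were 86.5 and 91.8 without UV and 97.1 and 93.9 after UV, and in ASH1L-/- cells 92.9 and 89.2 without UV and 94.5 and 94.7 after UV. All 4 UV values lay above all 4 unchallenged values, as at 5.99% of all sites, at 95.0 ± 1.39 against 90.1 ± 2.87 (SD, n = 4 each). The difference in rank score of 0.36 ± 0.14 (SE) did not pass in limma (adjusted p = 0.110). Its summit pileup over the genome mean was 17.6 and 41.4 in WT cells without UV and 59.7 and 83.8 after UV. It was 17.6 and 31.6 in ASH1L-/- cells without UV and 65.8 and 50.5 after UV. Again UV and no UV did not overlap, as at 17.1% of all sites. The summit pileup rose 1.69-fold relative to the library median (95% interval 1.29 to 2.21, adjusted p = 0.00714 in limma).

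**Figure D2:**
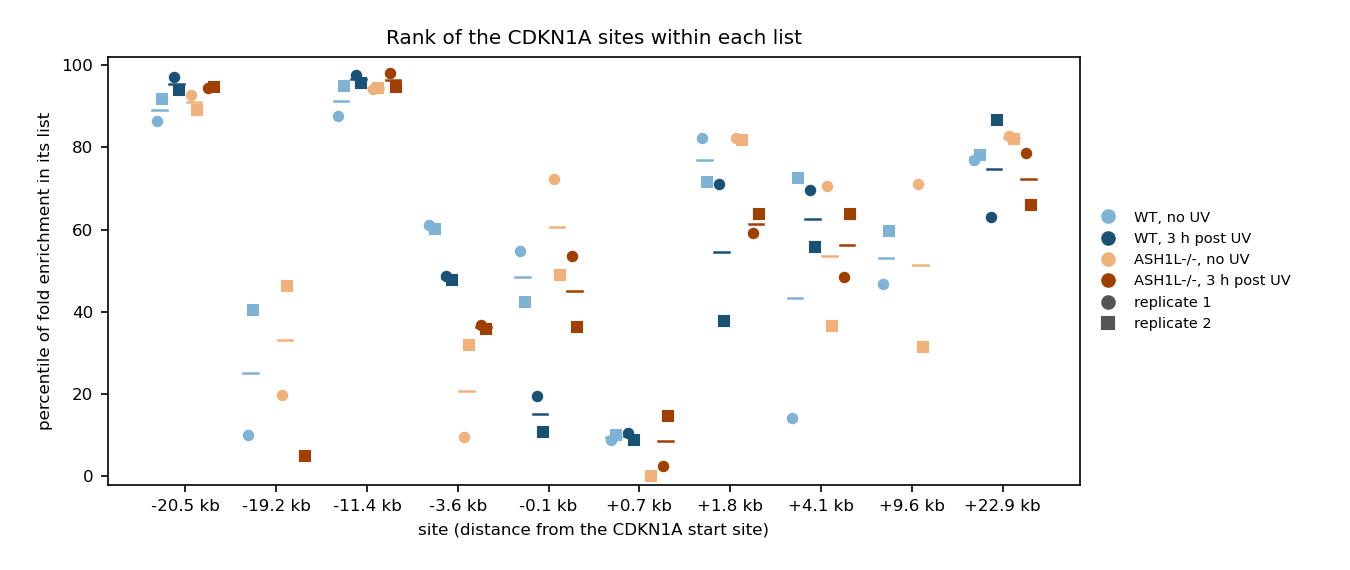
Percentile of fold enrichment within the list (vertical axis) of the 10 CDKN1A sites with a region in at least 4 lists, by site. Points are libraries, with colour for the group and shape for the replicate, and short lines are group means. The upstream sites at -20.5 and -11.4 kb lie between 86.5 and 98.1 in all libraries, whereas the start site at -0.1 kb ranges from 10.8 to 72.3.

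The summits within the -11.4 kb site were placed against the p53 element. In all 4 unchallenged libraries the region had 2 summits, one on each side of the element, at 68 to 108 bases right of its middle and 82 to 106 bases left of it. After UV, 3 of 4 libraries had a single summit, at 20 bases left of the middle in replicate 1 of WT, 70 bases right of it in replicate 2 of WT and 26 bases left of it in replicate 1 of ASH1L-/- cells. Replicate 2 of ASH1L-/- cells kept 2 summits, 66 bases left and 24 bases right of the middle. This comparison was made after the values were seen and was not tested.

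The region at the canonical start site (-0.1 kb, 36678265 to 36678935) covers the start of CDKN1A and, on the other strand, that of DINOL, a non-coding RNA known to stabilise p53. Its percentiles were 54.7 and 42.4 in WT cells without UV and 19.6 and 10.8 after UV. In ASH1L-/- cells they were 72.3 and 49.0 without UV and 53.7 and 36.3 after UV. The mean was 54.6 ± 12.8 without UV and 30.1 ± 18.9 after UV (SD, n = 4 each), with overlap between the libraries. The UV difference of -24.5 did not pass an exact permutation test, two-sided, over 70 assignments (p = 0.0857, smallest p possible 0.0286), nor did the rank score of -0.71 ± 0.36 (SE) in limma (adjusted p = 0.201). Without replicate 1 of ASH1L-/- cells 3 h post UV the difference was -32.4 (p = 0.0286, exact permutation). Ranked by the p-value in place of fold enrichment, the UV difference was -5.51 points (p = 0.314, exact permutation).

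Among protein-coding genes the CDKN1A start site ranked low in fold enrichment, which is relative to the local background. No such ranking was made in summit pileup. Over the 11802 genes with a region within 1 kb of the canonical start in all 8 lists, the mean percentile of CDKN1A, 42.3, was above that of 0.881% of genes, and the median gene had 88.3. The gene was chosen with earlier results of these data known, so this rank is a description. The genes whose start-site percentiles were closest to those of CDKN1A over the 8 libraries were FAM120A, LIN7B, S100A16, LIMS2 and ADGRA2, with mean absolute differences of 8.6 to 10.2 percentile points.

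Reads at the summit of the start site were then taken apart from the background. Over the genome mean, the summit pileup was 22.4 and 33.9 in WT cells without UV and 35.6 and 50.9 after UV. In ASH1L-/- cells it was 16.7 and 31.6 without UV and 60.5 and 37.0 after UV. All 4 UV values were above the unchallenged ones, as at 17.1% of all sites. Relative to the library median the change was 1.19-fold (95% interval 0.916 to 1.55, adjusted p = 0.332 in limma) and did not pass. The local background against which the caller set the summit rose. In WT cells it was 6.35 and 10.1 times the genome mean without UV and 13.2 and 18.5 after UV, and in ASH1L-/- cells 4.84 and 8.15 without UV and 13.9 and 12.4 after UV. All 4 UV values were higher than all 4 others, as at 16.1% of all sites. Relative to the library median this was a 1.71-fold rise (95% interval 1.35 to 2.18, adjusted p = 0.000622 in limma). The background was examined after the percentiles had been seen. In a list called without a control it is drawn from a wide stretch of the same library around the summit, so it includes reads of the neighbouring sites and of the gene body. Its part in the percentiles was not tested.

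The edges of the start-site region were also compared, with a share of all sites taken for the left edge only. Its left edge lay at -332 to -353 bases from the start in the 4 unchallenged libraries and at -420 to -449 in the 4 UV libraries, toward the body of DINOL. In 9.0% of all sites the left edges of the UV libraries lay left of all unchallenged ones. Its right edge lay 184 to 221 bases after the start without UV. After UV it was 174 and 155 bases after the start in replicate 2 of WT and replicate 1 of ASH1L-/- cells, 7 bases after it in replicate 2 of ASH1L-/- cells and at -21 bases in replicate 1 of WT cells. The width of 546.8 ± 9.91 bp without UV and 511.5 ± 98.6 bp after UV (SD, n = 4 each) gave no call (adjusted p = 0.669 in limma).

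**Figure D3:**
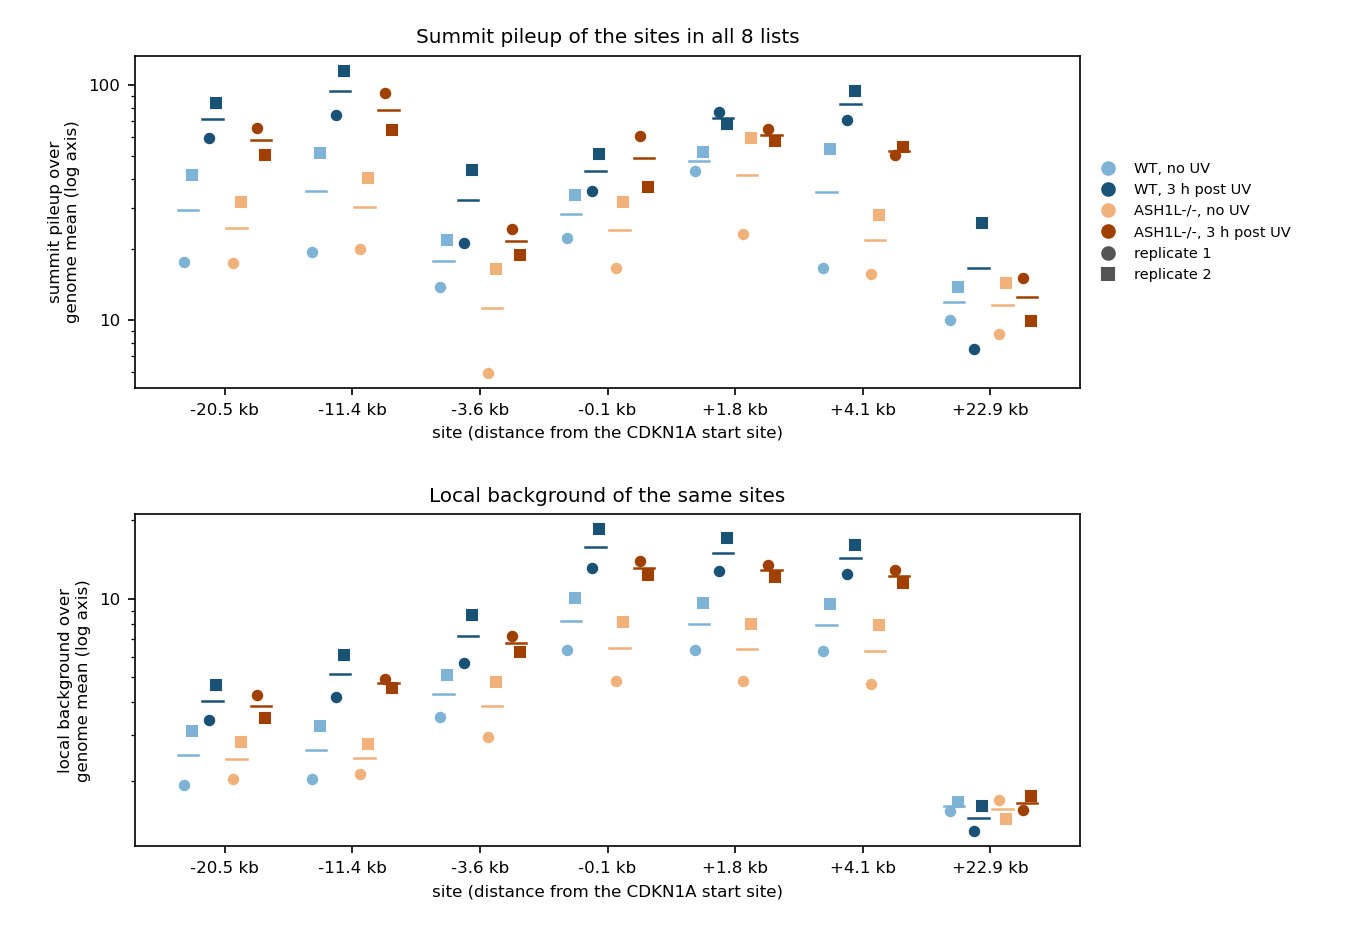
Summit pileup (upper panel) and local background (lower panel) of the 7 CDKN1A sites present in all 8 lists, both as multiples of the mean pileup of the genome on log axes. Points are libraries and short lines are group means. At 6 sites the backgrounds of all 4 UV libraries are above those of the 4 unchallenged libraries, as at 16.1% of all sites in the genome, and at +22.9 kb, within RAB44, they overlap.

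The site at -3.6 kb (36674878 to 36675315) covers the start of PANDAR and overlaps the pseudogene LAP3P2. In WT cells its percentiles were 61.1 and 60.2 without UV and 48.8 and 47.8 after UV. In ASH1L-/- cells they were 9.54 and 31.9 without UV and 36.9 and 35.9 after UV, so that the genotypes moved in opposite directions. The UV by genotype term in rank score was 0.85 ± 0.74 (SE) and did not pass (adjusted p = 0.9999 in limma). Its regions were 323 to 359 bp wide without UV and 384 to 438 bp wide after UV, without overlap, as at 12.4% of all sites, and the difference in log2 width did not pass (0.22 ± 0.15 SE, adjusted p = 0.447 in limma).

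Within the gene, 3 sites lay in the first intron of the canonical transcript. The weakest, at +0.7 kb, was absent from replicate 1 of the unchallenged ASH1L-/- cells and lay at percentiles 0.0582 to 14.7 in the other 7 lists. The site at +1.8 kb (36680102 to 36680955), which covers an exon of another transcript, lay at percentiles 82.2 and 71.7 in WT cells without UV and 71.2 and 37.8 after UV. It lay at 82.4 and 81.7 in ASH1L-/- cells without UV and 59.1 and 63.7 after UV. All 4 UV values were below all 4 unchallenged values, as at 12.3% of all sites. The fold enrichment itself overlapped, at 5.775 ± 1.05 without UV and 4.77 ± 0.793 after UV (SD, n = 4 each). List medians of fold enrichment ran from 2.57 to 3.71 without UV and from 3.47 to 5.06 after UV. By library, the fold enrichment of the site was 6.34 and 5.125 in WT cells without UV and 5.84 and 3.92 after UV. In ASH1L-/- cells it was 4.68 and 6.95 without UV and 4.69 and 4.64 after UV. The difference in rank score of -0.62 ± 0.20 (SE) was just short of the threshold (adjusted p = 0.0567 in limma), and it passed without replicate 1 of irradiated WT cells (-0.80, adjusted p = 0.0273 in limma). Its summit pileup changed 1.07-fold relative to the library median (95% interval 0.798 to 1.43).

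The site at +4.1 kb (36682445 to 36683260), which holds a p53 match and another alternative exon, also gained reads. Its summit pileup over the genome mean was 16.7 and 53.5 in WT cells without UV and 71.2 and 94.6 after UV. In ASH1L-/- cells it was 15.7 and 28.1 without UV and 50.3 and 54.7 after UV. The ranges overlap through replicate 2 of the unchallenged WT cells. Relative to the library median the rise was 1.75-fold (95% interval 1.27 to 2.41, adjusted p = 0.0142 in limma), and without replicate 1 of irradiated WT cells it did not pass (adjusted p = 0.0596 in limma). Its regions were 287 to 667 bp wide without UV and 701 to 816 bp wide after UV, also without overlap (12.4% of all sites), and the log2 width of 0.78 ± 0.29 (SE) did not pass (adjusted p = 0.240 in limma). Its percentile, 48.5 ± 28.2 without UV and 59.4 ± 9.17 after UV (SD, n = 4 each), ranged from 14.2 to 72.5 over the unchallenged libraries.

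The remaining sites were weak or variable. The site at +9.6 kb, past the end of the gene, had a region in all 4 unchallenged lists, at percentiles 31.5 to 71.1, and in no UV list, as did 0.0967% of the 548046 sites. Its 4 regions are not at one place: that of replicate 1 of WT cells, 9742 to 9941 bases after the start, overlaps only that of replicate 2 of ASH1L-/- cells, which reaches from 9288 to 9762. The site at -19.2 kb had one in all 4 unchallenged lists, at percentiles 9.93 to 46.2, and in 1 UV list, at 4.93. The sites at -22.2, -22.0 and +15.3 kb were found in 1 UV list each, and that at +14.8 kb in 1 unchallenged list. In an intron of RAB44, a gene of a Rab GTPase, the site at +22.9 kb lay at percentiles 76.9 to 82.7 without UV and 63.0 to 86.6 after UV, with overlap. In number, the window held 11 and 10 regions in WT lists without UV and 8 and 8 after UV, and 9 and 10 in ASH1L-/- lists without UV and 11 and 10 after UV, a mean UV difference of -0.75. Within 50 kb of the gene the difference was 3.0, in the opposite direction. The whole lists of WT cells held 178662 and 189651 regions without UV and 161647 and 166875 after UV. Those of ASH1L-/- cells held 220783 and 158198 without UV and 165339 and 199262 after UV.

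Read against the genome, the CDKN1A sites differed between measures. Of the 7 sites, 0 were called for UV in rank score by limma. At an unadjusted p below 0.05 there were 3 of the 7, beside 17348 of all 60323 sites. Over all 60323 sites 4.98% were called higher and 7.09% lower. With log2 fold enrichment in place of its rank, calls were mostly higher, at 23.5% against 0.879% lower. In summit pileup relative to the library median 3 of the 7 were called higher and 0 lower, beside 11.0% and 12.5% of all sites. Without subtraction of that median the same 3 sites passed, and all sites shifted by a median of 0.46 on the log2 scale, with 10550 called higher and 680 lower, against 6656 and 7529. In local background 6 of the 7 were called higher, beside 12.6% higher and 13.5% lower of all sites. Without subtraction of the median, 14.7% of all sites were called higher and 1.24% lower. These 6 are not independent, as the backgrounds of the sites at -0.1, +1.8 and +4.1 kb differed little within a library and their surroundings overlap. In log2 width 0 of the 7 were called, with 0.615% higher and 0.0796% lower of all sites. Here 1 of the 7 had an unadjusted p below 0.05, beside 11000 of all 60323 sites. The other 88 sites within 1 Mb of the start site had a median UV difference of -0.12 in log2 summit pileup and 0.0013 in log2 background, against 0.37 and 0.69 for the 7 sites. The scale of each is relative to the library median.

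**Figure D4:**
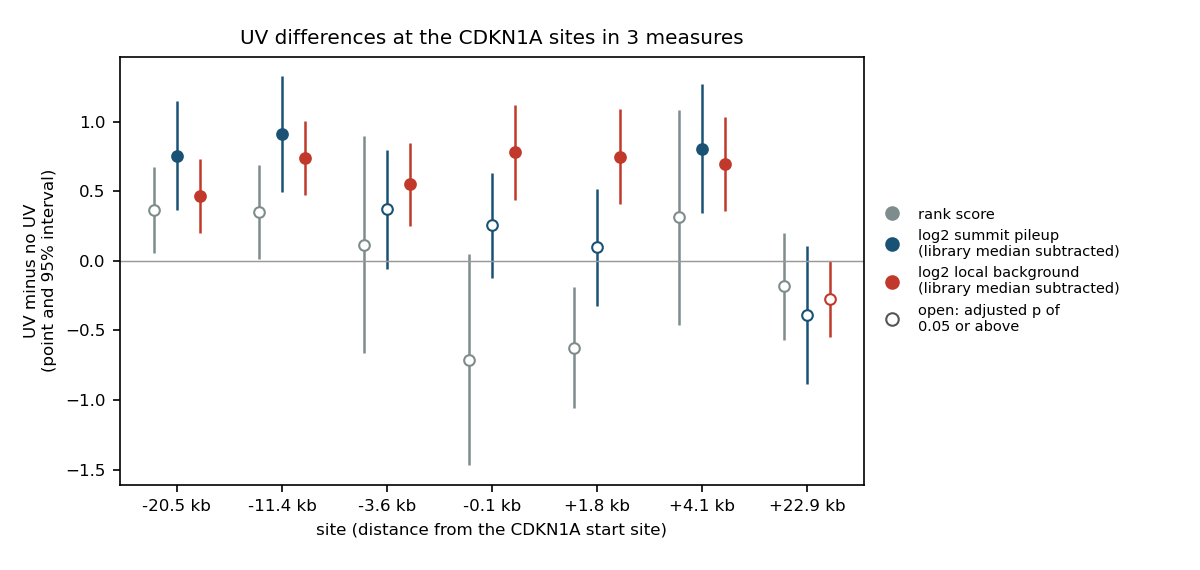
UV minus no UV at the 7 CDKN1A sites present in all 8 lists, in rank score, log2 summit pileup and log2 local background (vertical axis), with pileup and background relative to the library median. Points are limma estimates with 95% intervals, filled where the adjusted p is below 0.05. Rank score has 0 filled points, summit pileup has 3, at -20.5, -11.4 and +4.1 kb, and background has 6.

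Genotype had no called effect at CDKN1A in rank score, the only measure in which it is given here for the 7 sites. In rank score 0 of the 7 sites were called between ASH1L-/- and WT cells, beside 0.219% of all sites, and the unadjusted p was above 0.05 at all 7 by limma. The unadjusted p was below 0.05 at 6367 of all 60323 sites. Relative to the library median, genotype was called by limma at 9.37% of all sites in summit pileup and at 19.5% in local background. At the start site the ASH1L-/- libraries were 20.9 percentile points higher on average (p = 0.2, exact permutation test, two-sided). Ranked by the p-value in place of fold enrichment, the difference was 9.10 points. The UV by genotype contrast there, WT minus ASH1L-/-, was -17.7 points (p = 0.543, permutation test, two-sided). That test takes all 8 libraries as exchangeable, so differences by UV or genotype alone enter its null. It therefore cannot decide on an interaction. For the summit pileup at -11.4 kb the ratio of the UV fold change in ASH1L-/- to that in WT cells was 0.810 (95% interval 0.448 to 1.47), and at -20.5 kb it was 0.816 (0.467 to 1.43), and both intervals include 1. No site of the genome was called for this interaction in rank score (0 by limma, 1627 at an unadjusted p below 0.05).

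Other p53 target genes were set beside CDKN1A by the region at their canonical start. Of 32 such genes 29 had a site there in all 8 lists. In rank score 8 of the 29 were called lower after UV and 0 higher, with a median of -0.37. Over the 10535 start sites of protein-coding genes 9.11% were lower and 0.56% higher, with a median of -0.21. The lowest were GADD45A, a DNA repair and growth arrest gene, at -1.13 ± 0.16 (SE, adjusted p = 0.000946 in limma), TNFRSF10B, a death receptor gene, at -0.81 ± 0.34 (adjusted p = 0.131), where the fitted site was not the strongest region in every list, and PMAIP1, which encodes the apoptosis factor NOXA, at -0.73 ± 0.15 (adjusted p = 0.00701). The highest were ZMAT3 at 0.50 ± 0.16 (SE, adjusted p = 0.0503 in limma), TP53INP1 at 0.22 ± 0.28 and the death receptor gene FAS at 0.21 ± 0.15, none of which passed.

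In summit pileup, 6 of the 29 start sites were called higher and 2 lower, beside 2.90% and 5.89% of protein-coding start sites, with FAS at 2.06-fold and ZMAT3 at 2.19-fold relative to the library median. In local background 18 of the 29 were called higher and 0 lower, beside 10.4% and 2.34% of protein-coding start sites. The background at GADD45A rose 1.99-fold, beside the fall in rank at its start site. The part of the background in that fall was not tested. Among 6 genes of other CDK inhibitors, 3 had a start site in all 8 lists. In rank score 1 of these was called lower, CDKN2D at -0.50 ± 0.14 (SE, adjusted p = 0.0297 in limma), and in background 0 of 3 were called. In summit pileup 1 of the 3 was called lower, again CDKN2D, at 0.695-fold relative to the library median (adjusted p = 0.0468 in limma). In none of these measures was a start site of these 3 called higher.

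**Figure D5:**
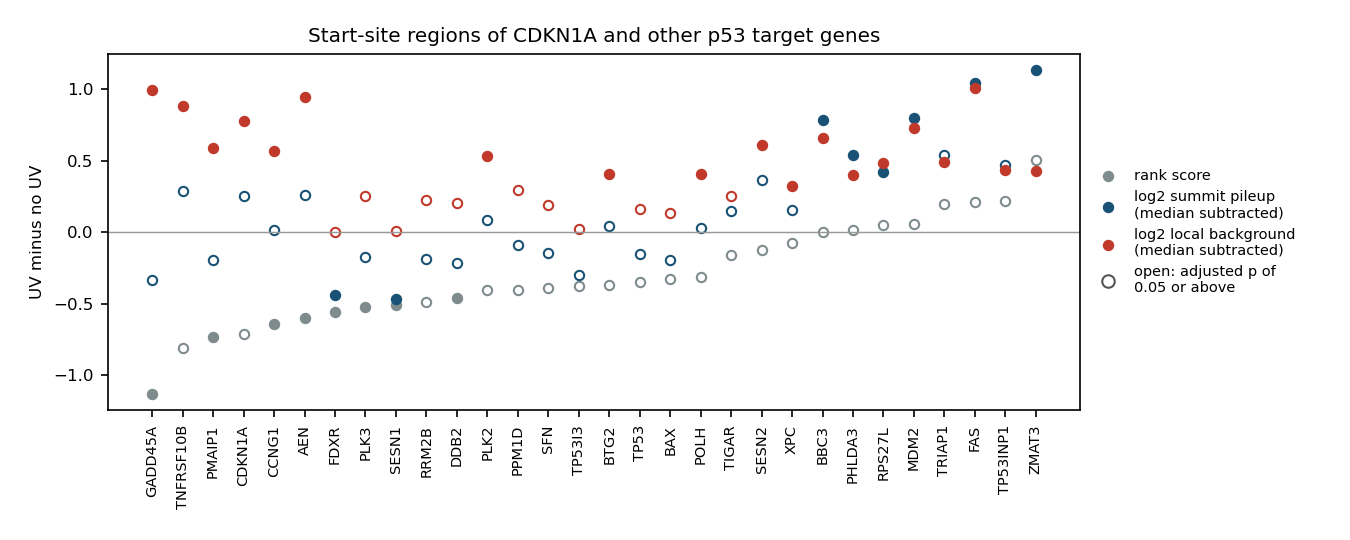
UV minus no UV in rank score, log2 summit pileup and log2 local background (vertical axis) at the start sites of CDKN1A and 29 other p53 target genes, ordered by rank score. Filled points have an adjusted p below 0.05. In rank score 8 genes are filled and all lie below 0, and in background 18 of the 29 genes are filled and all lie above 0.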

How the data were processed

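ATAC-seq was made from 8 samples of U2OS cells. Per the labels and the study's methods, the authors trimmed reads with cutadapt 1.9.1, aligned them with Bowtie2 2.4.5 to hg38 without chromosome Y, removed duplicates with Picard, and called peaks with MACS2 2.2.7.1 in each library separately, without pooling. The deposited lists give per summit a fold enrichment, which is a ratio of pileup to local background, with its significance by the authors' caller as −log10 of p and of q. The deposited score, which the authors' caller derived from the −log10 p-value, was not used.

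Records with the same interval were joined into 1 region. Regions were ranked by fold enrichment within a list, as percentiles. Lists were joined into union sites. Pileup and background were recovered by solving fold enrichment and Poisson p together, and 100% of pileups were whole within 0.05 in each library. The lowest background of a list is its mean pileup. All intervals cover the spread between libraries only. Sites in all 8 lists were fitted by limma 3.58.1 in R 4.3.3 with UV and genotype as terms and Benjamini-Hochberg adjustment over 60323 sites. Single values were compared by exact permutation tests, two-sided. Scripts were tested on simulated data. Start sites are those of canonical transcripts in GENCODE release 44, on the same build.

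In rank score, same-numbered replicates of different groups did not deviate together (correlations -0.11 to 0.14), and the samples were not treated as paired. Other measures were not checked in this way. With replicate number as a further term (replicate block), sites called for UV went from 11230 to 19043 in log2 pileup. Relative to the library median they went from 15752 to 23004 in background and from 14185 to 13747 in pileup. The members and gene lists were chosen with earlier results of these data known. The CDKN1A sites, the genes with a start in the window, the 3 highest and 3 lowest p53 targets, and the 5 genes closest in start-site percentiles are named. Pileup was planned without subtraction of the library median. That subtraction and the local background were added after the data were seen.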

Additional observations from a re-analysis of the deposited data

Results flagged for a closer look

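The percentile of the site at -3.6 kb, at the start of PANDAR, was lower in both irradiated WT libraries than in both unirradiated ones, and higher in both irradiated ASH1L-/- libraries than in their controls. The mean change in WT less the mean change in ASH1L-/- cells was -28.0 percentile points. The library of greatest depth, from ASH1L-/- cells without UV, had the lowest value, 9.54, and the other library of that group had 31.9. In limma the interaction in rank score had an unadjusted p of 0.269 and did not pass.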

How the results depend on the processing

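Under every other setting of its permutation test, the start-site difference of -24.5 percentile points kept its direction. It was only -5.51 (p = 0.314, exact permutation) when lists were ranked by p or q. In log2 fold enrichment it was -0.14 (p = 0.457, exact permutation). Within 2 kb of the start, where the +1.8 kb site is taken, it was -21.5 (p = 0.0286, exact permutation), and without 1 library each it ranged from -32.4 to -18.1. With a replicate block it was -24.5 (p = 0.125, exact permutation, the smallest p possible). The UV by genotype contrast of -17.7 ranged from -40.6 to 0.393 and changed sign without replicate 2 of irradiated WT cells. The genotype difference of 20.9 became 9.10 when ranked by p or q and 6.01 within 2 kb, and ranged from 13.9 (without replicate 2 of irradiated WT cells) to 28.6 without 1 library each. The interval count of -0.75 became 3.0 within 50 kb, and ranged from -1.33 (without replicate 1 of irradiated ASH1L-/- cells) to -0.333 (with either irradiated WT library left out).

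Sites called for UV in rank score, 7282, became 14695 with log2 fold enrichment (14165 higher and 530 lower, against 3004 and 4278), 11230 with log2 pileup and 7144 with the replicate block, and 3491 to 6898 without 1 library each. The lowest was without replicate 1 of irradiated ASH1L-/- cells. For genotype 132 became 504 with ranks among shared sites, 74 with log2 fold enrichment, 943 with pileup and 77 at q below 0.05, and 17 (without replicate 1 of irradiated ASH1L-/- cells) to 248 (without replicate 1 of unchallenged WT cells) with 1 library left out. For the interaction the range was 0 to 141, the highest without replicate 2 of unchallenged WT cells. For width 419 became 265 after subtraction of the median width and 109 with the replicate block, and 40 (without replicate 2 of irradiated WT cells) to 377 with 1 library left out. The 8 p53 targets became 4 with log2 fold enrichment, 5 at q below 0.05 and 3 by summit windows, and 2 (without replicate 1 of irradiated ASH1L-/- cells) to 8 with 1 library left out.

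At single sites, rank score changed sign at -3.6 kb with ranks among shared sites (-0.032), and ranged there from -0.14 to 0.20 without 1 library each. At +4.1 kb it ranged from -0.073 to 0.60, below 0 without replicate 1 of unchallenged WT cells. With log2 pileup the UV difference turned from below 0 to above it at -0.1 kb (0.82), +1.8 kb (0.66) and +22.9 kb (0.18). At +22.9 kb log2 fold enrichment gave 0.28. With log2 fold enrichment the sites at -20.5 kb (0.74, adjusted p = 0.00482 in limma) and -11.4 kb (0.64, adjusted p = 0.0158) passed. Width at -20.5 kb was -0.018 after subtraction of the median, and at -0.1 kb ranged from -0.22 to 0.0055. Pileup relative to the median at +1.8 kb ranged from -0.11 to 0.28, and at +22.9 kb it was 0.18 without subtraction. The background call at -20.5 kb was lost without replicate 1 of unchallenged ASH1L-/- cells (0.41, adjusted p = 0.0503 in limma). The replicate block changed no call at the 7 sites in rank score or width. Where a value changed, the cause was not tested. With 2 libraries a group, small differences are not detectable.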
